A study of Mus musculus with 6 samples.

Results

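Lysosomal hydrolases, their activators and lysosomal membrane proteins were followed here as 40 named genes, leaving out the cathepsins. Each was taken from the deposited expression table by its symbol, and all 40 were found among the 47643 gene IDs. The cells, named L-GMP for leukaemic granulocyte-macrophage progenitors, are leukaemia cells akin to the bone marrow progenitor from which granulocytes and monocytes arise, isolated by sorting from C57BL/6 mice. The 3 KO libraries are labelled as double knockouts of Prkaa1 and Prkaa2, the genes of both catalytic subunits of the energy sensor AMPK, and the 3 WT libraries as wild type. The labels give no age, no way in which the genes were deleted, no oncogene, no batch and no number of mice, so p-values below reflect variation among libraries alone, and that variation may be technical.

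Lysosomes are acidic compartments in which hydrolases take apart glycans, lipids, proteins and nucleic acids that arrive by endocytosis and autophagy. Most soluble hydrolases receive a mannose 6-phosphate tag in the Golgi and reach the lysosome through receptors for it, and membrane proteins such as LAMP1 and LAMP2 form much of the lysosomal membrane. Many lysosomal genes carry a motif called CLEAR, a palindrome around the E-box CACGTG, through which the transcription factors TFEB and TFE3 act, and AMPK is known to act upstream of these factors. In myeloid cells the azurophil granules of promyelocytes are related to lysosomes and hold several of the same hydrolases and membrane proteins, CD63 and CD68 among them.

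The libraries held between 12371716 and 14024685 recovered reads in KO and between 11389758 and 16415006 in WT. Prkaa1 had 1.11, 0.735 and 0.548 FPKM in the KO libraries, against 2.01, 2.2 and 1.8 FPKM in the WT libraries, and Prkaa2 had 4 reads in KO and 2 in WT. FPKM scales the fragments of a gene to its length and to a size set for the library. In the deposited values that size did not follow the recovered reads. Gusb had 2810 reads and 48.3 FPKM in KO replicate 1, a library of 13872055 recovered reads. In WT replicate 1, with 11389758 recovered reads, Gusb had 5561 reads and 96.2 FPKM. Of 13 progenitor markers, 12 had a mean of at least 1 FPKM in KO and 10 in WT. Of these 13, 7 were called higher in KO (38.0% of all genes tested were), 4 lower (40.4% of all genes) and 2 not tested. Among the surface receptors in that list, Kit averaged 1.43 FPKM in KO and 0.25 FPKM in WT. Csf3r (2.09 FPKM in KO, 0.72 in WT) and Csf1r (0.179 in KO, 0.00484 in WT) also had higher means in KO. Csf3r reached the mean of 1 FPKM needed for testing only through its KO values. Cd34 (3.51 FPKM in KO, 27.8 in WT), Fcgr2b (4.19 in KO, 14.9 in WT) and Fcgr3 (66.8 in KO, 129 in WT) were lower in KO. Of the lymphoid lists, Pax5 and Cd3e were at 0 in both groups, Cd79b averaged 2.48 FPKM in KO and 54.6 FPKM in WT, and Nkg7 averaged 116 FPKM in KO and 53.5 FPKM in WT. The summed FPKM of 14 neutrophil maturation genes lay between 71668 and 73042 in KO and between 388 and 399.8 in WT. Most of it came from S100a8 (52072 FPKM in KO, 205 in WT) and S100a9 (14559.7 in KO, 67.7 in WT). Camp differed far less (10.3 FPKM in KO, 6.74 in WT), and Mmp9 was at 0 in KO and 0.0593 in WT. For 18 eosinophil, basophil and mast cell genes the sum lay between 600.2 and 632 in KO and between 32.9 and 39.0 in WT. In KO most of that sum came from Prg2 (299 FPKM in KO, 0.0282 in WT) and Mcpt8 (182 in KO, 28.4 in WT). For 15 monocyte and macrophage genes the sum lay between 119 and 129.6 in KO and between 384 and 399 in WT. Nearly all of that sum came from Ly6c2 (110.4 FPKM in KO, 387 in WT). In the same list F13a1 (0 FPKM in KO, 2.25 in WT) was also lower in KO. Adgre1 (10.3 FPKM in KO, 3.34 in WT) and Klf4 (2.57 in KO, listed at 0 in WT) were higher in KO. Klf4 reached the mean of 1 FPKM only through its KO values, and F13a1 only through its WT values. C1qa, C1qc and Mrc1 were at 0 in both groups. These lists moved with the genotype, and their part in the lysosomal changes was not tested. In such bulk samples, fewer cells of a type and less RNA per cell cannot be told apart.

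On the deposited scale, most of the tested lysosomal transcripts were more abundant in KO. Of the 40 genes, 35 averaged 1 FPKM or more across all 6 libraries and were tested. Among these, 22 (62.9%) were higher in KO, where 38.0% of all 9108 genes tested were, 9 (25.7%) were lower, where 40.4% of all genes were, and 4 did not pass (limma, adjusted p under 0.05). Taking both directions together, 31 of the 35 changed, where 78.4% of all genes did. At least a doubling on the log2(FPKM + 1) scale was seen in 9 of the 35 (25.7%, against 12.8% of all genes), and no tested member fell by as much (0 of 35, against 13.6% of all genes). The median log2 fold change, KO minus WT, was 0.57 for the 35 tested members and -0.02 for all genes tested. The 3 KO values lay wholly above the 3 WT values in 23 tested members (39.1% of all genes did so) and wholly below them in 9 (41.6% of all genes). Replicates were close together: in 31 of the 40 genes the SD was at most 10% of the mean in both groups.

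The counts of rises and falls moved when libraries were rescaled to equal sums. Quantile normalization left them nearly as they were, at 23 higher and 9 lower members. FPKM sums ran from 649611 to 653819 in KO libraries and from 463683 to 475654 in WT libraries, and rescaling all libraries to equal sums shifts the median of all genes to -0.45. On that scale 17 of the 35 members were higher (22.7% of all genes) and 16 were lower (59.0% of all genes), with a member median of 0.11. All 17 were among the 22 of the deposited scale, and all 9 falls remained falls. Hexa, Lipa and Asah1 were called higher as deposited and lower after rescaling, and Neu1 and Gla lost their rise. Arsa, Ctns, Dpp7 and Idua, which did not pass as deposited, were called lower after rescaling. Folds below are ratios of mean FPKM as deposited, while log2 fold changes were taken between mean log2(FPKM + 1) values, which shrinks those of scarce transcripts. Means are given with their SD over 3 libraries.

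**Figure D1:**
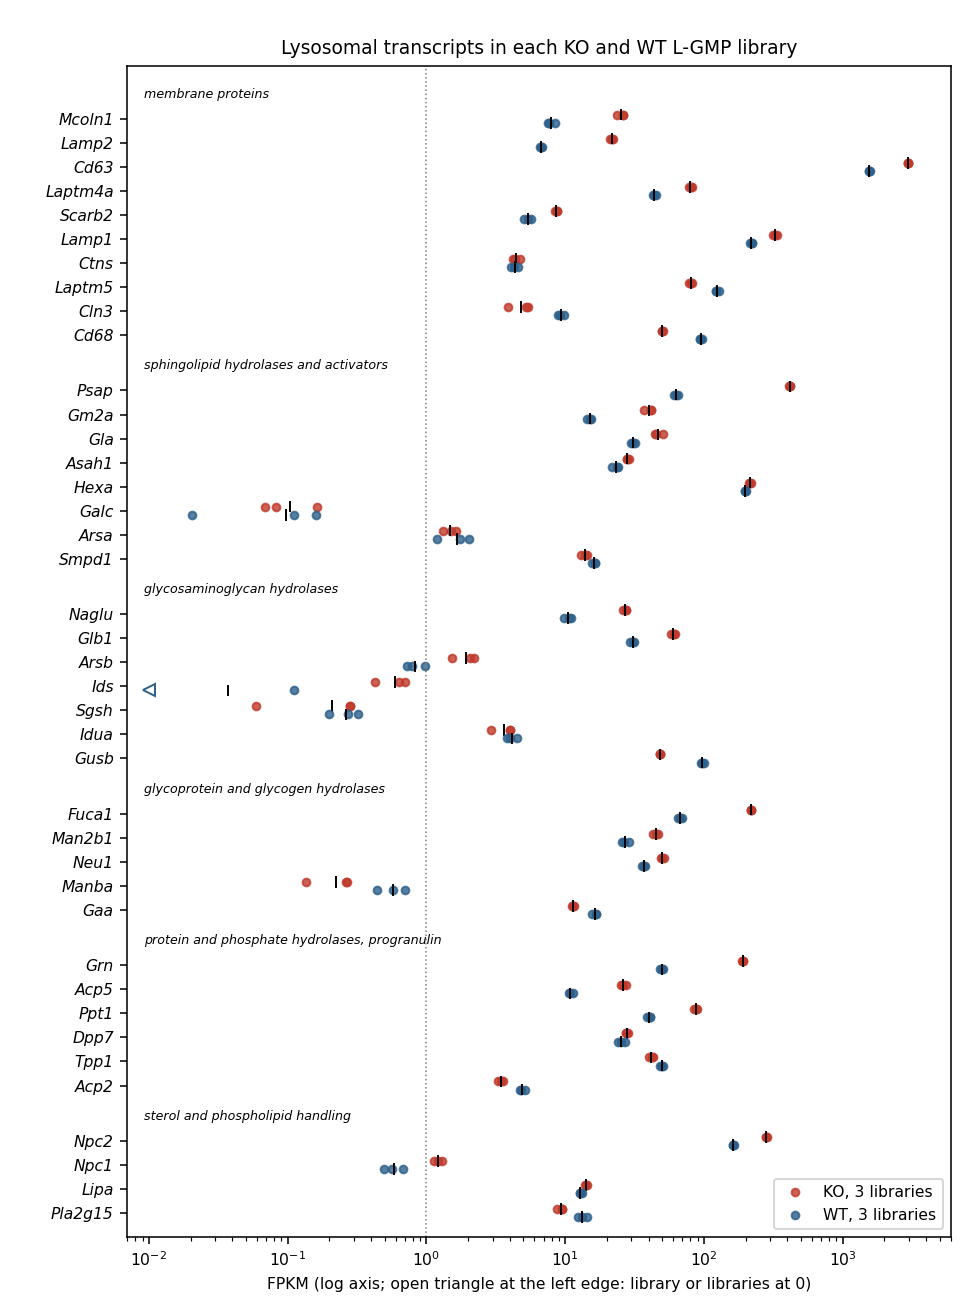
FPKM (log axis) of each of the 40 lysosomal genes in the 3 KO and 3 WT libraries, grouped by role, with each point a library, black ticks the group means, the dotted line 1 FPKM and the open triangle the 2 WT libraries in which Ids was at 0. Psap, Grn, Fuca1, Mcoln1 and Lamp2 show wide gaps between the groups, with KO above WT, while Gusb, Cd68, Cln3 and Laptm5 show KO below WT.

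The promoters of the lysosomal genes were searched for CLEAR letters, because this motif links the family to TFEB and TFE3. RefSeq windows of 300 bases, from 250 before to 50 after the transcription start site (GRCm38.p6), were at hand for 38 of the 40 genes, with more than 1 window for some. The 7 letters TCACGTG, on either strand, occurred in 10 of the 38 (26.3%) and in 4.29% of the 27025 genes with a window. The 6 letters CACGTG, contained in the longer motif, occurred in the same 10 genes (8.09% of all genes). The 8 letters GTCACGTG, which contain both, occurred in 8 members (21.1%, against 2.55% of all genes), and the full palindrome, GTCAC followed by its reverse complement, in Cln3 alone of the members (0.37% of all genes). Of the 10 members with TCACGTG, 5 were higher in KO (Mcoln1, Naglu, Glb1, Gla and Lamp1), 2 were lower (Cln3 and Gaa), Arsa and Dpp7 did not pass and Sgsh was not tested. Their median log2 fold change over the 9 tested was 0.57, and it was 0.60 over the 25 tested members whose windows lack the letters. A match describes the letters of the window and shows no binding.

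Windows are shown for the largest rise among these genes (Mcoln1), for the gene with most matches (Lamp1, with 4) and for the larger of the falls (Cln3), 5′ to 3′, in lower case with TCACGTG or its reverse complement in capitals.
Mcoln1 (chr8:3500269-3500568, plus strand): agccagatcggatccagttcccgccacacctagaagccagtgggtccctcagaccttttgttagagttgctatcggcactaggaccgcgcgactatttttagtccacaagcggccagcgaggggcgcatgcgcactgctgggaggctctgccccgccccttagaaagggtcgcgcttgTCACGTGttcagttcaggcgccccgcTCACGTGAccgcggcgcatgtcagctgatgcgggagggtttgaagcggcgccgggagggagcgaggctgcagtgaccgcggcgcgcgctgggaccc
Lamp1 (chr8:13158911-13159210, plus strand): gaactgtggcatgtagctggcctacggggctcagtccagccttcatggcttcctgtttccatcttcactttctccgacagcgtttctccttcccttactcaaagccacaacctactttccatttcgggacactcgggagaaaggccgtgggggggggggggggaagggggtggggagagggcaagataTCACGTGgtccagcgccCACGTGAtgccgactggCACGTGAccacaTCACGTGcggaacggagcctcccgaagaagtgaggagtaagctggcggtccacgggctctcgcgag
Cln3 (chr7:126583187-126583486, minus strand): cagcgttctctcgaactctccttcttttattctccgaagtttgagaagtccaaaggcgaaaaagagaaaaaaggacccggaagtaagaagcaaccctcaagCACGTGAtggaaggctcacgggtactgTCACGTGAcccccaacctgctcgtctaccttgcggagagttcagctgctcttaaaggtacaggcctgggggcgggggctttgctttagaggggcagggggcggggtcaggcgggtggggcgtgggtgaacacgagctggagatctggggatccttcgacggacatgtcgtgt
Mcoln1 holds matches 72 and 46 bases before the RefSeq start site of its window, and Lamp1 at 62, 45, 28 and 16 bases before its own. The Cln3 window shown holds them at 149 and 122 bases before its start site, the second being the palindrome. Cln3 has another RefSeq window (chr7:126585768-126586067), which holds no match. The match of each other member stands on its own line with its flanking bases, to show which letters carry the count.
Naglu (chr11:101070010-101070036, plus strand): aaccttcaggTCACGTGgcccgaggtc
Glb1 (chr9:114401019-114401045, plus strand): tgcttctgagTCACGTGgcctacagag
Gla (chrX:134601217-134601243, minus strand): aagcgattgaTCACGTGAgcatctacg
Gla (chrX:134601184-134601210, minus strand): gagatctcggTCACGTGAgcaactctc
Dpp7 (chr2:25356390-25356416, minus strand): cgccagactaTCACGTGAtgctgcccc
Arsa (chr15:89477425-89477451, minus strand): caactcagtgTCACGTGttgtctgctc
Sgsh (chr11:119355523-119355549, minus strand): gcctgccgtgCACGTGAccgtggggag
Gaa (chr11:119267812-119267838, plus strand): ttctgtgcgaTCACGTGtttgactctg
The matches in Dpp7 and Gaa do not extend to GTCACGTG, and those of the other 8 genes include one that does.

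**Figure D2:**
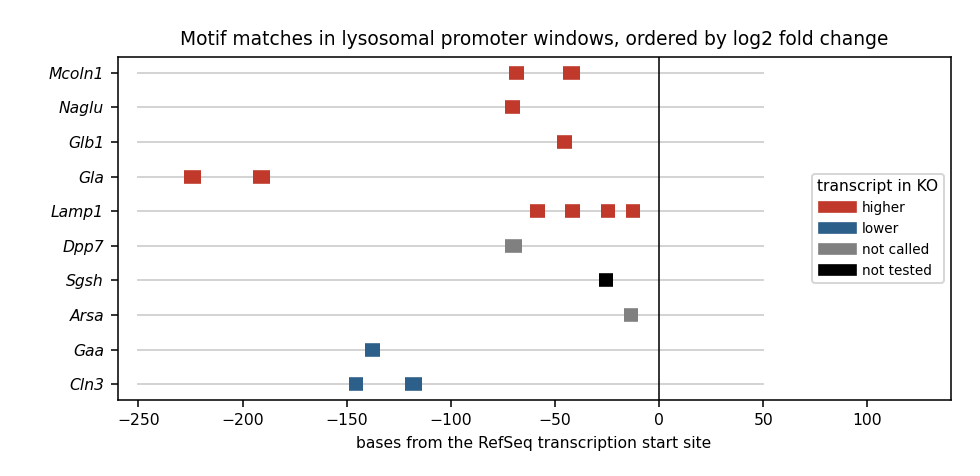
Positions of TCACGTG or its reverse complement, in bases from the RefSeq transcription start site, in the 10 lysosomal genes that hold it, ordered from the highest to the lowest log2 fold change. Coloured blocks are matches and their colour gives the call of the transcript in KO: the 5 higher genes and the 2 lower genes both carry matches upstream of the start site.

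Among the activators of sphingolipid breakdown, Psap had the largest log2(FPKM + 1) change of the 35 tested members. Psap encodes prosaposin, the precursor of the saposins that present lipids to the hydrolases, and lies at chromosome 10, 60277627 to 60302597. It had 410.0, 416 and 417 FPKM in the KO libraries, against 65.0, 60.5 and 62.9 FPKM in the WT libraries. The groups were far apart, and Psap moved to rank 2 of the 40 genes in KO, against rank 9 in WT (6.59-fold, log2 fold change 2.70, SE 0.03, adjusted p = 1.63e-09). Gm2a, the GM2 activator that delivers ganglioside to hexosaminidase A, had 41.3, 37.0 and 41.4 FPKM in KO, against 15.4, 14.4 and 15.2 FPKM in WT. Every KO library lay above every WT library (2.67-fold, log2 fold change 1.36, SE 0.06, adjusted p = 4.55e-07).

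Hexa, which encodes the alpha subunit of hexosaminidase A, was among the most abundant members, at 216 ± 3.82 FPKM in KO and 198 ± 1.86 FPKM in WT (SD, n = 3 each). Its rise was 1.09-fold (adjusted p = 0.00159) and became a fall of log2 -0.35 after rescaling. Hexa shares 12.8% of its exonic bases with Tmem202, so its values are uncertain, since it is not stated whether counting used strand.

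The sphingolipid hydrolases had smaller folds than their activators. Gla, alpha-galactosidase A, had 45.1, 44.3 and 51.0 FPKM in KO, against 32.1, 30.8 and 29.6 FPKM in WT, with no overlap (1.52-fold, adjusted p = 7.06e-05), a rise that was not called after rescaling (log2 0.13, adjusted p = 0.109). Asah1, acid ceramidase, averaged 28.0 ± 0.619 FPKM in KO and 23.1 ± 1.21 FPKM in WT (1.22-fold, adjusted p = 0.00127), and went to log2 -0.18 after rescaling. Smpd1, acid sphingomyelinase, was 1.17-fold lower in KO, at 13.8 ± 0.65 FPKM against 16.1 ± 0.448 FPKM in WT (adjusted p = 0.00686). Arsa, arylsulfatase A, had overlapping libraries, at 1.31 to 1.64 FPKM in KO and 1.19 to 2.04 FPKM in WT (log2 fold change -0.09, 95% interval -0.40 to 0.23, adjusted p = 0.562), and shares 18.8% of its exonic bases with C230037L18Rik. Galc, which cleaves galactosylceramide, was under the minimum, with 0.0818, 0.0689 and 0.162 FPKM in KO, against 0.0206, 0.159 and 0.111 FPKM in WT. These rest on 15 reads in KO and 18 in WT, the libraries overlapped, and no difference was detectable at this depth (exact permutation p = 0.9). Of the 7 tested members of this class, 5 were higher (38.0% of all genes were), 1 was lower (40.4% of all genes) and 1 did not pass. After rescaling the balance turned round, with 2 higher (22.7% of all genes) and 4 lower (59.0% of all genes).

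Membrane proteins of the lysosome went in both directions, with 6 of 10 higher in KO (38.0% of all genes were), 3 lower (40.4% of all genes) and 1 not called. After rescaling 6 were higher (22.7% of all genes) and 4 lower (59.0% of all genes). Cd63, a tetraspanin of lysosomes and granules at chromosome 10, 128900989 to 128912822, was the most abundant of the 40 genes in every library. It had 2969, 2947 and 2946 FPKM in KO, against 1542, 1555 and 1572 FPKM in WT. All KO values lay above all WT values (1.90-fold, log2 fold change 0.92, SE 0.01, adjusted p = 4.31e-09). Cd63 made up 54.0 to 54.2% of the summed FPKM of the 40 genes in KO and 50.3 to 50.7% in WT. The sum of all 40 was 5460.0 to 5480.1 FPKM in KO and 3067 to 3099 FPKM in WT, and without Cd63 it was 2511 to 2514 FPKM in KO and 1525 to 1527 FPKM in WT. As a share of all FPKM in a library, the 40 genes took 0.835 to 0.843% in KO and 0.651 to 0.661% in WT.

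The transcripts of both major membrane glycoproteins, LAMP1 and LAMP2, rose. Lamp1 had 327, 339 and 317 FPKM in KO, against 221, 224 and 215 FPKM in WT (1.49-fold, log2 fold change 0.57, SE 0.03, adjusted p = 1.54e-06). Lamp2, which also serves chaperone-mediated autophagy, had 22.3, 21.9 and 20.9 FPKM in KO, against 6.56, 6.80 and 6.68 FPKM in WT (3.24-fold, log2 fold change 1.56, SE 0.05, adjusted p = 1.05e-07). The groups were apart for both genes, and Lamp1 had the higher FPKM in every library. Mcoln1, the calcium-releasing channel TRPML1, had 26.3, 23.8 and 26.0 FPKM in KO, against 8.46, 7.56 and 7.65 FPKM in WT. Its rise was close to that of Lamp2 (3.22-fold, log2 fold change 1.57, SE 0.06, adjusted p = 3.78e-07). Laptm4a, a small lysosomal membrane protein, was 1.82-fold higher, and Scarb2, which encodes the membrane protein LIMP-2, was 1.60-fold higher.

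The membrane proteins that fell were Cd68, Cln3 and Laptm5. Cd68, a mucin-like protein widely used to mark macrophages and other phagocytes, lies at chromosome 11, 69664213 to 69666153. It had 49.7, 50.2 and 50.4 FPKM in KO, against 94.3, 93.4 and 96.3 FPKM in WT (1.89-fold lower, log2 fold change -0.90, SE 0.03, adjusted p = 9.1e-08). The spread within each group was far smaller than the gap. Of the monocyte and macrophage genes above, Ly6c2 and F13a1 were lower in KO like Cd68 while Adgre1 and Klf4 were higher. The part of these genes in the change of Cd68 was not tested. Cln3, the membrane protein mutated in juvenile Batten disease, had 5.26, 3.87 and 5.36 FPKM in KO, against 8.91, 9.77 and 9.15 FPKM in WT (1.92-fold lower, log2 fold change -0.83, SE 0.11, adjusted p = 0.000294). KO replicate 2 was the lowest, and the groups did not overlap. Laptm5, a lysosomal protein of blood cells, had 81.6, 81.0 and 78.6 FPKM in KO, against 123, 128 and 122 FPKM in WT (1.54-fold lower, log2 fold change -0.62, SE 0.03, adjusted p = 9.58e-07). It thus went the other way from its relative Laptm4a. Ctns, the cystine exporter, had overlapping libraries, at 4.20 to 4.74 FPKM in KO and 4.04 to 4.61 FPKM in WT (95% interval of the log2 fold change -0.15 to 0.20, adjusted p = 0.754).

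**Figure D3:**
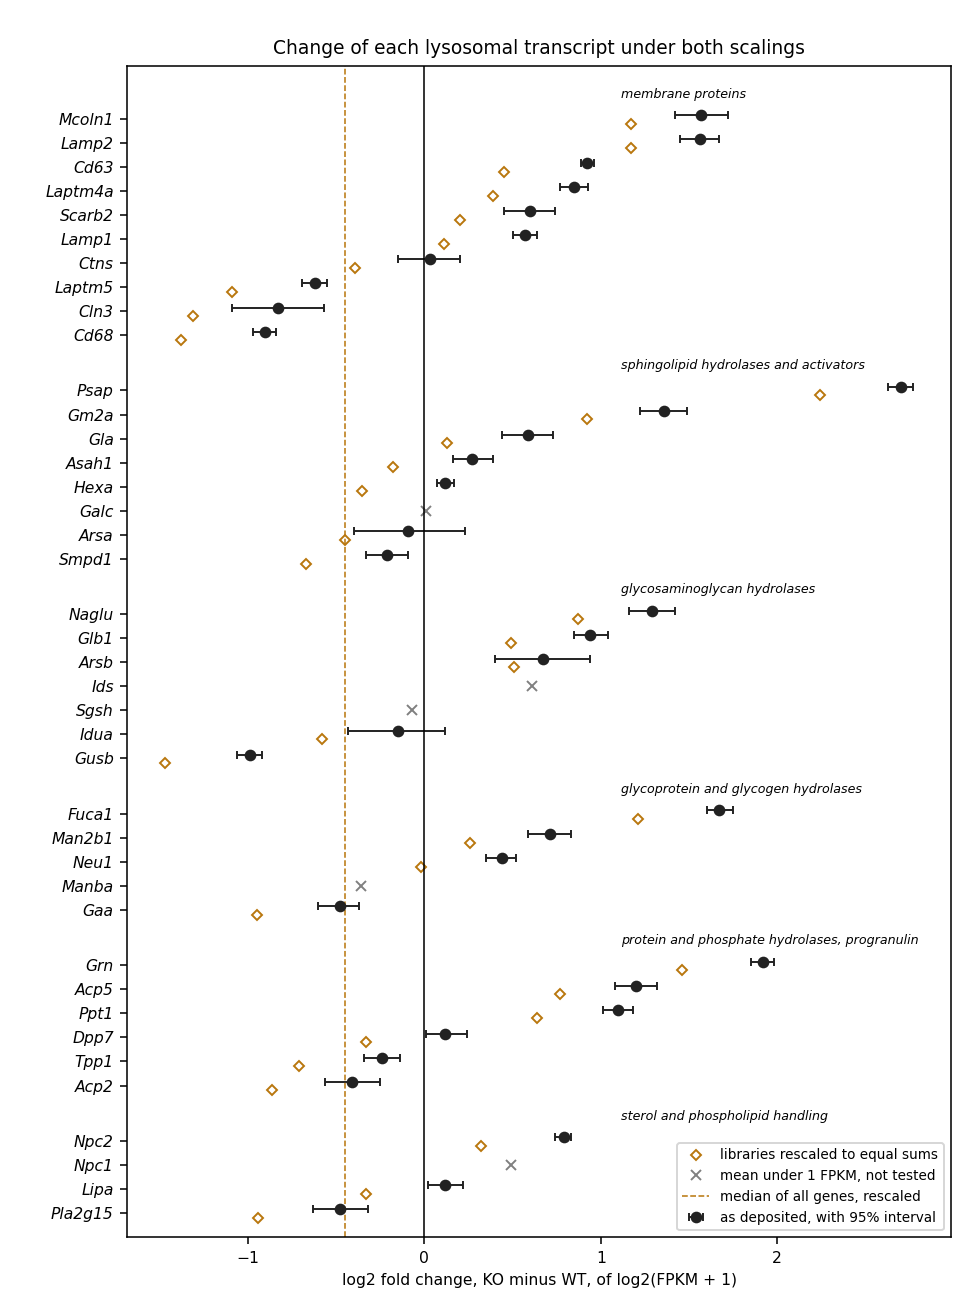
Log2 fold change, KO minus WT, of each lysosomal gene by role, on the log2(FPKM + 1) scale: filled circles with 95% intervals are the values as deposited, open diamonds the values with libraries rescaled to equal sums, and crosses the 5 genes under the minimum that were not tested. The dashed line marks the rescaled median of all genes (-0.45), and Hexa, Lipa, Asah1, Neu1, Ctns and Dpp7 are the tested genes whose 2 symbols lie on opposite sides of 0.

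Enzymes of glycosaminoglycan breakdown also split. Naglu, which removes N-acetylglucosamine from heparan sulfate, had 27.5, 27.5 and 26.3 FPKM in KO, against 9.77, 10.6 and 11.1 FPKM in WT (2.58-fold, log2 fold change 1.29, SE 0.05, adjusted p = 5.34e-07). Glb1, beta-galactosidase, was 1.95-fold higher, at 59.9 ± 1.96 FPKM in KO and 30.6 ± 1.13 FPKM in WT (adjusted p = 6.3e-07). Gusb, beta-glucuronidase (chromosome 5, 129989011 to 130003049), fell most of the tested members on the log2(FPKM + 1) scale, with 48.3, 48.1 and 48.0 FPKM in KO, against 96.2, 94.7 and 99.4 FPKM in WT. Its KO libraries were within 1% of one another and all lay below the WT libraries (2.01-fold lower, log2 fold change -0.99, SE 0.03, adjusted p = 9.05e-08). Idua, alpha-L-iduronidase, overlapped between the groups, at 2.9 to 4.0 FPKM in KO and 3.82 to 4.51 FPKM in WT (95% interval of the log2 fold change -0.43 to 0.12, adjusted p = 0.261). Arsb, arylsulfatase B, was called higher (1.93 ± 0.344 FPKM in KO and 0.832 ± 0.134 FPKM in WT, adjusted p = 0.00104). It passed the minimum of 1 FPKM through its KO values, and 39.9% of its exonic bases are shared with other genes.

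Ids and Sgsh, sulfatases of heparan sulfate, lay under the minimum. Ids, iduronate 2-sulfatase, had 0.429, 0.705 and 0.636 FPKM in KO, against 0, 0 and 0.111 FPKM in WT, or 111 reads in KO and 8 in WT. The groups did not overlap, at an exact permutation p of 0.1, which is the smallest that 3 against 3 libraries can give. Sgsh, sulfamidase, had 0.283, 0.0596 and 0.28 FPKM in KO, against 0.321, 0.2 and 0.273 FPKM in WT. Its libraries overlapped, with 35 reads in KO and 51 in WT and 21.6% of its exonic bases shared with Card14 (exact permutation p = 0.7). Hgsnat acts in the same pathway and was named after its values were seen. It averaged 32.6 ± 1.76 FPKM in KO and 19.6 ± 1.03 FPKM in WT (1.66-fold, adjusted p = 1.61e-05).

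Glycoprotein and glycogen enzymes were led by Fuca1. Fuca1, alpha-L-fucosidase, which removes fucose from glycoproteins, lies at chromosome 4, 135920735 to 135940311. It had 218, 217 and 219 FPKM in KO, against 67.8, 65.2 and 69.8 FPKM in WT (3.22-fold, log2 fold change 1.67, SE 0.03, adjusted p = 1.17e-08). Man2b1, lysosomal alpha-mannosidase, was 1.66-fold higher and Neu1, the lysosomal sialidase, 1.36-fold higher (adjusted p = 1.01e-05 and 1.45e-05), Neu1 being at log2 -0.02 after rescaling. Gaa, acid alpha-glucosidase that degrades glycogen, had 11.3, 11.6 and 11.2 FPKM in KO, against 15.5, 16.8 and 16.6 FPKM in WT (1.43-fold lower, log2 fold change -0.48, SE 0.05, adjusted p = 6.36e-05). Manba, beta-mannosidase, was under the minimum at 0.135, 0.264 and 0.266 FPKM in KO, against 0.440, 0.571 and 0.702 FPKM in WT. Its groups did not overlap (57 reads in KO and 180 in WT, exact permutation p = 0.1).

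Among the remaining lumenal proteins, progranulin stood out. Grn encodes progranulin, a secreted and lysosomal glycoprotein that binds prosaposin, and lies at chromosome 11, 102430315 to 102437048. It had 191, 189 and 191 FPKM in KO, against 48.2, 50.8 and 50 FPKM in WT, the second largest rise among the tested members on the log2(FPKM + 1) scale, after Psap (3.83-fold, log2 fold change 1.92, SE 0.03, adjusted p = 4.51e-09). Ppt1, palmitoyl-protein thioesterase, was 2.17-fold higher, at 87.5 ± 2.23 FPKM in KO and 40.3 ± 1.35 FPKM in WT (adjusted p = 1.61e-07). Acp5, tartrate-resistant acid phosphatase, known from osteoclasts, had 25.1, 27.6 and 26.3 FPKM in KO, against 10.8, 11.3 and 10.6 FPKM in WT (2.41-fold, log2 fold change 1.20, SE 0.05, adjusted p = 5.82e-07). Of 6 osteoclast genes, Nfatc1 was also higher, at 7.07 FPKM in KO and 2.62 FPKM in WT (2.70-fold, adjusted p = 6.13e-06), while Ctsk, Dcstamp and Ocstamp were at 0 in both groups. Their part in the rise of Acp5 was not tested.

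The other phosphatase and the peptidases were lower or did not pass. Acp2, lysosomal acid phosphatase, had 3.57, 3.28 and 3.44 FPKM in KO, against 4.81, 5.10 and 4.73 FPKM in WT (1.42-fold lower, adjusted p = 0.000785), with 12.6% of its exonic bases shared with Ddb2. Tpp1, tripeptidyl peptidase, had 42.4, 40 and 43.3 FPKM in KO, against 51.0, 48.0 and 50.3 FPKM in WT (1.19-fold lower, adjusted p = 0.00122). Both groups were apart in each gene. Dpp7, a dipeptidyl peptidase, averaged 27.7 ± 0.529 FPKM in KO and 25.4 ± 1.54 FPKM in WT (adjusted p = 0.0529, and 0.0155 without WT replicate 2).

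Of the sterol and phospholipid genes, Npc2 rose most clearly. Npc1 and Npc2 together export cholesterol from the lysosome. Npc2, the soluble cholesterol carrier, averaged 281 ± 1.57 FPKM in KO and 163 ± 1.87 FPKM in WT (1.73-fold, log2 fold change 0.79, SE 0.02, adjusted p = 4.62e-08). Npc1, its membrane partner, was under the minimum, with 1.3, 1.14 and 1.21 FPKM in KO, against 0.682, 0.495 and 0.569 FPKM in WT. Its groups did not overlap (2.09-fold, exact permutation p = 0.1). Lipa, lysosomal acid lipase, differed by 1.09-fold (14.1 ± 0.261 FPKM in KO and 12.9 ± 0.295 FPKM in WT, adjusted p = 0.0362). That call was lost without KO replicate 2 (adjusted p = 0.0770), KO replicate 3 (0.0869), WT replicate 2 (0.109) or WT replicate 3 (0.0861), and turned to log2 -0.33 after rescaling. Pla2g15, lysosomal phospholipase A2, had 8.76, 9.50 and 9.55 FPKM in KO, against 14.3, 13.2 and 12.4 FPKM in WT (1.43-fold lower, log2 fold change -0.48, SE 0.07, adjusted p = 0.00037).

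Other genes of the lysosome, listed from general knowledge, were set beside the 40. Of 26 further hydrolases, 24 were tested, with 16 higher (38.0% of all genes were), 7 lower (40.4% of all genes) and 1 not called, at a median log2 fold change of 0.38. After rescaling 10 were higher (22.7% of all genes) and 9 lower (59.0% of all genes), at a median of -0.06. Naaa, which hydrolyses fatty acid ethanolamides, had 19.6 ± 0.221 FPKM in KO and 0.265 ± 0.0513 FPKM in WT, 74.1-fold higher (adjusted p = 6.78e-09). It passed the minimum of 1 FPKM through its KO values. Hpse, heparanase, was 7.18-fold higher, while Aga, aspartylglucosaminidase, was 3.31-fold lower, Man2b2 2.84-fold lower and Pld4, an endolysosomal exonuclease, 2.04-fold lower. Of 29 further membrane proteins and transporters, 16 were tested, with 12 higher (38.0% of all genes were), 2 lower (40.4% of all genes) and 2 not called, at a median of 0.67. After rescaling 9 were higher (22.7% of all genes) and 4 lower (59.0% of all genes), at a median of 0.28. Pqlc2, the exporter of cationic amino acids, rose 3.22-fold, Sidt2 (10.4% of exonic bases shared) rose 2.29-fold and Clcn7, the chloride-proton exchanger, rose 2.28-fold. Laptm4b fell 2.35-fold and Mfsd12 1.32-fold, with 29.8% of the exonic bases of Mfsd12 shared. Its call was lost without KO replicate 1 (adjusted p = 0.0606), KO replicate 2 (0.0794), WT replicate 2 (0.0897) or WT replicate 3 (0.0685), and without the filter (0.0534).

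**Figure D4:**
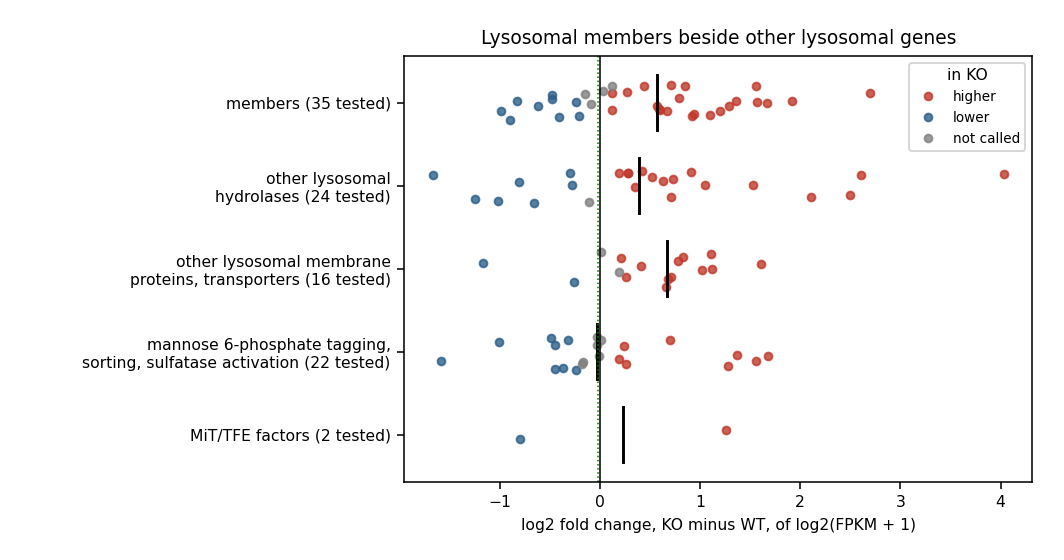
Log2 fold change, KO minus WT, on the log2(FPKM + 1) scale, of the tested genes in each lysosomal list, with each point a gene coloured by its call in KO, black bars the list medians and the dotted line the median of all genes tested (-0.02). The members (median 0.57) and the further membrane proteins (0.67) lie mostly above 0, and the tagging and sorting genes (-0.03) lie around it.

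The machinery that tags and sorts hydrolases had call counts near those of all genes: of 22 tested genes, 8 were higher (38.0% of all genes were), 8 were lower (40.4% of all genes) and 6 did not pass, with a median of -0.03. After rescaling 5 were higher (22.7% of all genes) and 15 lower (59.0% of all genes), with a median of -0.48. Gnptg, a subunit of the phosphotransferase that starts the mannose 6-phosphate tag, averaged 38.3 ± 0.351 FPKM in KO and 12.3 ± 0.760 FPKM in WT (3.10-fold, adjusted p = 1.34e-07), but 49.5% of its exonic bases are shared with Unkl. Nagpa, the enzyme that uncovers the tag, averaged 31.1 ± 2.30 FPKM in KO and 95.3 ± 1.07 FPKM in WT (3.07-fold lower, adjusted p = 1.75e-07). Ap1s2, a subunit of the AP-1 adaptor, rose 4.66-fold and Sorl1, a sorting receptor, 4.11-fold, while Sumf2 (23.6% of exonic bases shared) fell 2.15-fold and the retromer subunit Vps26a 1.44-fold. The receptors and the catalytic phosphotransferase subunit were named after their values were seen. M6pr, the cation-dependent receptor, averaged 39.6 ± 1.40 FPKM in KO and 40.5 ± 0.968 FPKM in WT (adjusted p = 0.484), and was called lower after rescaling (log2 -0.50). Igf2r, the larger receptor, had 3 reads in KO and 217 in WT and lay under the minimum. Gnptab was 1.36-fold lower (adjusted p = 0.0411), a call lost without KO replicate 1 or 3 or any WT replicate (adjusted p between 0.0521 and 0.109) and without the filter (0.0786).

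The transcription factors that act on CLEAR motifs were themselves low in FPKM. Tfe3 had 4.11, 4.31 and 4.01 FPKM in KO, against 1.22, 1.15 and 1.06 FPKM in WT (3.62-fold, log2 fold change 1.26, SE 0.07, adjusted p = 2.61e-06). Tfeb was under the minimum, with 0.938, 1.36 and 0.954 FPKM in KO, against 0.416, 0.283 and 0.363 FPKM in WT, and its groups did not overlap (exact permutation p = 0.1). Tfec, a relative expressed in myeloid cells, went the other way, at 4.36 ± 0.229 FPKM in KO and 8.34 ± 0.440 FPKM in WT (1.91-fold lower, adjusted p = 1.98e-05). Mitf had 21 reads in KO and none in WT. RNA levels do not report the activity of these factors, which is set largely by phosphorylation and location in the cell.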

How the data were processed

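RNA-seq libraries of sorted L-GMP, 3 KO and 3 WT, were made by Smart-seq2 and Nextera XT, per the labels' protocols. Per the submitters' processing notes, the tools were CASAVA, bcl2fastq, STAR 2.5.3a (build mm10) and DESeq2 1.18.1. The values deposited by the authors are FPKM, in 1 table. Sources used here do not name the counter, its annotation, its strand setting or how it treated multimapped reads.

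Genes averaging 1 FPKM or more were tested on log2(FPKM + 1) with limma 3.58.1 (R 4.3.3): genotype model, mean-variance trend, two-sided, Benjamini-Hochberg adjustment over 9108 genes, threshold 0.05. The fit was tested on simulated data. Read numbers were worked back from FPKM (whole within 0.001) at the GENCODE M21 exonic length for 26 of the 40 genes, and for 14 at a searched length, where they are the smallest number the values allow. Pairs of replicates differed by 2.51 to 3.19 times the sampling variance, so none was counted as a duplicate. Exon overlaps and positions (GRCm38, the same build) came from GENCODE M21: 14 of the 40 genes share exonic bases with another gene, 5 of them over 10%. Promoters came from RefSeq. Alternatives were a pseudocount of 0.1, no filter, a minimum of 5 FPKM, rescaling, quantile normalization, a replicate block, leaving out each library, and limma-voom.

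The members and lists were chosen with earlier results of these data known. Values in every library are given for the 8 largest rises and 8 largest falls called, for Lamp1, Lamp2, Cd63, Cd68, Psap and for members under 1 FPKM, and from each further list the 3 largest rises and falls are named, apart from a result that is not reported here.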

Additional observations from a re-analysis of the deposited data

How the results depend on the processing

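Of 59 lysosomal and further named genes tested, 47 kept their direction and their side of the threshold in all of the 13 alternatives in which they could be tested. Under rescaling to equal sums the sign turned for Hexa (-0.35), Lipa (-0.33), Dpp7 (-0.33), Ctns (-0.39), Asah1 (-0.18) and Neu1 (-0.02) on the log2 scale. Neu1 was then not called (limma adjusted p = 0.481). Gla also lost its call, and Arsa, Idua and M6pr, not called as deposited, were called lower. That rescaling gave 16 lower members in place of 9 and 2069 higher genes in all in place of 3464. A minimum mean of 5 FPKM gave 2072 higher and 2383 lower genes among 5211 tested, and no filter gave 5769 lower genes in place of 3676 among 21132 tested. Leaving out each replicate in turn gave 21 to 22 higher and 9 lower members, and 3305 to 3380 higher and 3507 to 3603 lower genes in all. With the replicate number as a block, 21 members were higher and 9 lower, the calls of Lipa (adjusted p = 0.084), Mfsd12 (0.0589) and Gnptab (0.0651) being lost. The deviations of same-numbered KO and WT libraries had correlations of 0.0095, -0.012 and -0.017. Those of differently numbered libraries ran from -0.017 to 0.028. With so few libraries these values cannot tell whether same-numbered libraries share a day or a batch, and the labels do not say. A limma-voom fit on recovered reads, chosen after seeing the data, gave 22 higher and 9 lower members, without Lipa (adjusted p = 0.0744) and with Dpp7 (0.0447). Dpp7 was also called at a minimum of 5 FPKM (0.0489) and with quantile normalization (0.0109). The cause of these shifts was not tested beyond the numbers of genes and libraries. Counting error limits Galc (15 reads in KO, 18 in WT) and Sgsh (35 in KO, 51 in WT). Ids and Manba did not overlap between the groups but lay under the minimum, where the smallest possible exact permutation p is 0.1. Without the filter, 24 of the 40 members were called higher and 10 lower.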
